A study of Mus musculus with 2 samples.

Results

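The 39 genes described here encode enzymes that burn or build fatty acids, together with 2 nuclear receptors that control such enzymes, out of 32285 genes measured. They were chosen by name and role, though with earlier results of these data known, and all 39 were found under their symbols. Of these, 20 belong to mitochondrial and peroxisomal fatty acid oxidation, 14 to synthesis, desaturation and elongation, 3 to acyl-CoA activation and 2 to the receptors. The levels were measured by droplet-based single-cell RNA sequencing of whole brains dissociated with an enzymatic kit, from 6-month-old APP-KI mice, which carry a knocked-in amyloid precursor protein gene and serve as a model of Alzheimer's disease. One library had the genotype APP-KI Fit2-WT and the other APP-KI Fit2-Mut, so that both carried the APP knock-in. The series states that Fit2 was disrupted in macrophages. Fit2 (symbol Fitm2) is an endoplasmic reticulum protein required for lipid droplet formation. The number of animals in each library, the allele of Fit2 that was altered, and the promoter that made the change specific to macrophages are not given in the sources used here.

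Long-chain fatty acids are first joined to coenzyme A by acyl-CoA synthetases. Carnitine acyltransferases carry them into mitochondria, where repeated rounds of dehydrogenation, hydration, a further dehydrogenation and thiolysis release acetyl-CoA and feed electrons into the respiratory chain. In the opposite direction, acetyl-CoA carboxylase and fatty acid synthase make palmitate in the cytosol, and elongases and desaturases then lengthen it and insert double bonds. In the brain, oligodendrocytes make large amounts of lipid for myelin, astrocytes are known for both fatty acid oxidation and lipid supply to other cells, and microglia are the resident macrophages.

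After filtering, 5197 Fit2-WT and 5821 Fit2-Mut cells remained, with a median of 6808 and 7376 UMIs (unique molecular identifiers, counted molecules) per cell. The 28 clusters were named from 21 marker lists, 26 of them received a name, and the names end in "like" because they rest on markers alone. Levels are given for 11 cell types with at least 50 cells in each library and genotype ratios for the 7 types with at least 100. All levels are CPM, the summed UMIs of a gene in the cells of a type scaled to the summed UMIs of that type, and pairs of values are in the order Fit2-WT, Fit2-Mut. Every marker of each of the 11 types was at least 2-fold above all other cells in both libraries. The same markers had named the clusters, so that this describes the types and is no separate check. The cell sets of the libraries shared 10 barcodes. None of the 39 genes (0) was among the 2000 variable genes used for clustering. With 1 library per genotype no test was possible, and every interval printed is a 95% interval that covers counting error only. In microglia-like cells 16 UMIs of the targeted gene Fitm2 were counted for Fit2-WT against 1 for Fit2-Mut, a ratio of 0.0509 (0.00121 to 0.328). In astrocyte-like, oligodendrocyte-like, choroid plexus-like and ependymal-like cells, the Fitm2 ratio lay between 0.830 and 1.01 and every interval included 1.

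The genes of oxidation and synthesis were distributed differently over the brain's cell types. Summed over the 20 oxidation genes, choroid plexus-like cells, the epithelium that makes cerebrospinal fluid, stood highest at 3989 and 3854 CPM. Endothelial-like (1717 and 1566 CPM), ependymal-like (1687 and 1684 CPM), fibroblast-like (1593 and 1623 CPM) and astrocyte-like cells (1575 and 1556 CPM) lay close together below them. Microglia-like cells held 874 and 848 CPM, T cell-like cells 829 and 787 CPM, and neutrophil-like cells the least, 415 and 573 CPM. Summed over the 14 synthesis genes, the order was another one. Oligodendrocyte-like cells led with 3001 and 3072 CPM, followed by astrocyte-like cells with 1990 and 2063 CPM and ependymal-like cells with 1073 and 1209 CPM. Most of the oligodendrocyte-like sum came from a single gene, Scd2, whose levels are given below. Without Scd2, the remaining sum was slightly higher in astrocyte-like than in oligodendrocyte-like cells in both libraries. Choroid plexus-like cells held only 415 and 427 CPM of synthesis transcripts and microglia-like cells 298 and 308 CPM.

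**Figure D1:**
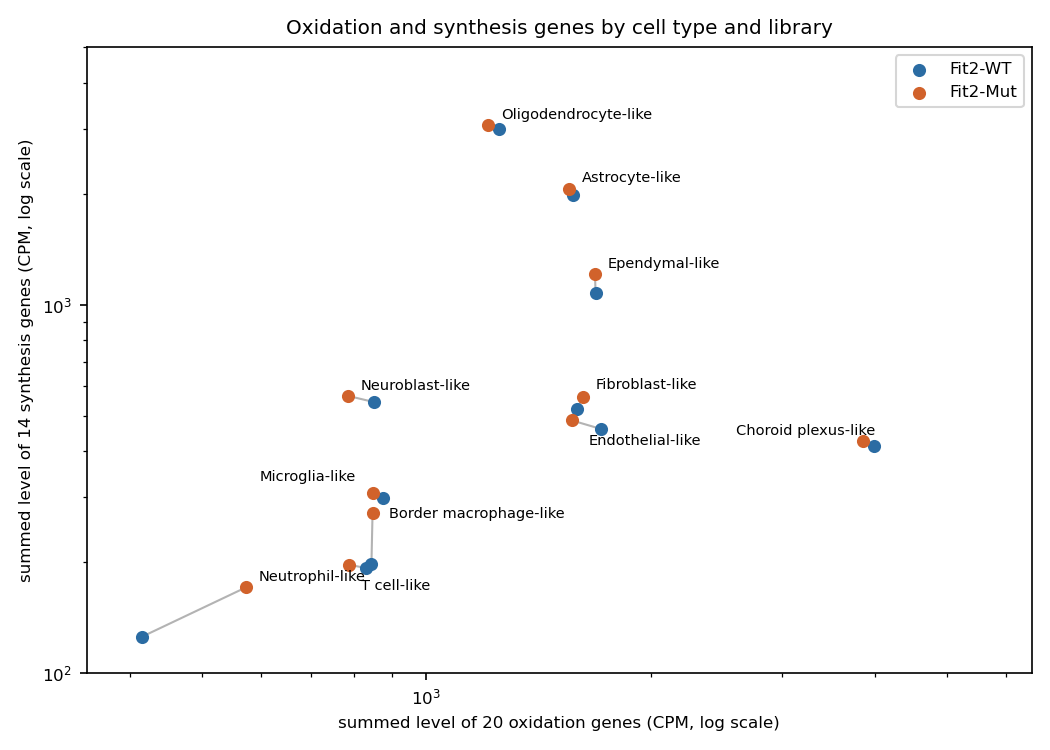
Summed CPM of the 20 oxidation genes (horizontal, log scale) against summed CPM of the 14 synthesis genes (vertical, log scale) in 11 cell types, 1 point per library with a line joining the libraries of a type. Choroid plexus-like cells lie far to the right (3989 and 3854 CPM) and oligodendrocyte-like cells at the top (3001 and 3072 CPM). For both types the points of the 2 libraries nearly coincide. Most of the oligodendrocyte-like synthesis sum is the gene Scd2.

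A gene is called high or low in a type when it was at least 2-fold above or below all other cells of the same library, in both libraries, with at least 20 UMIs in the type. By this rule 9 members were high in no type (23.1%), 17 in 1 type (43.6%) and 13 in more than 1 (33.3%). Over all 17290 genes that reached 20 UMIs in at least 1 of the types, these shares were 18.7%, 49.9% and 31.4%. The type with the highest level was the same in both libraries for 35 of 39 members (89.7%, against 74.6% of all genes). For 22 of them (56.4%, against 40.2% of all genes) its counting interval against the next type excluded 1 in both. Over the 11 types, Spearman's rho between the libraries had a median of 0.927 over members (0.542 to 0.991). This describes 11 types that share a library and their depth. Choroid plexus-like cells held 38.9% and 31.6% of all UMIs in cells, so that the reference of all other cells is weighted to them. A second reference without them was therefore added after the data were seen, and its counts are given beside the first ones where they differ.

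**Figure D2:**
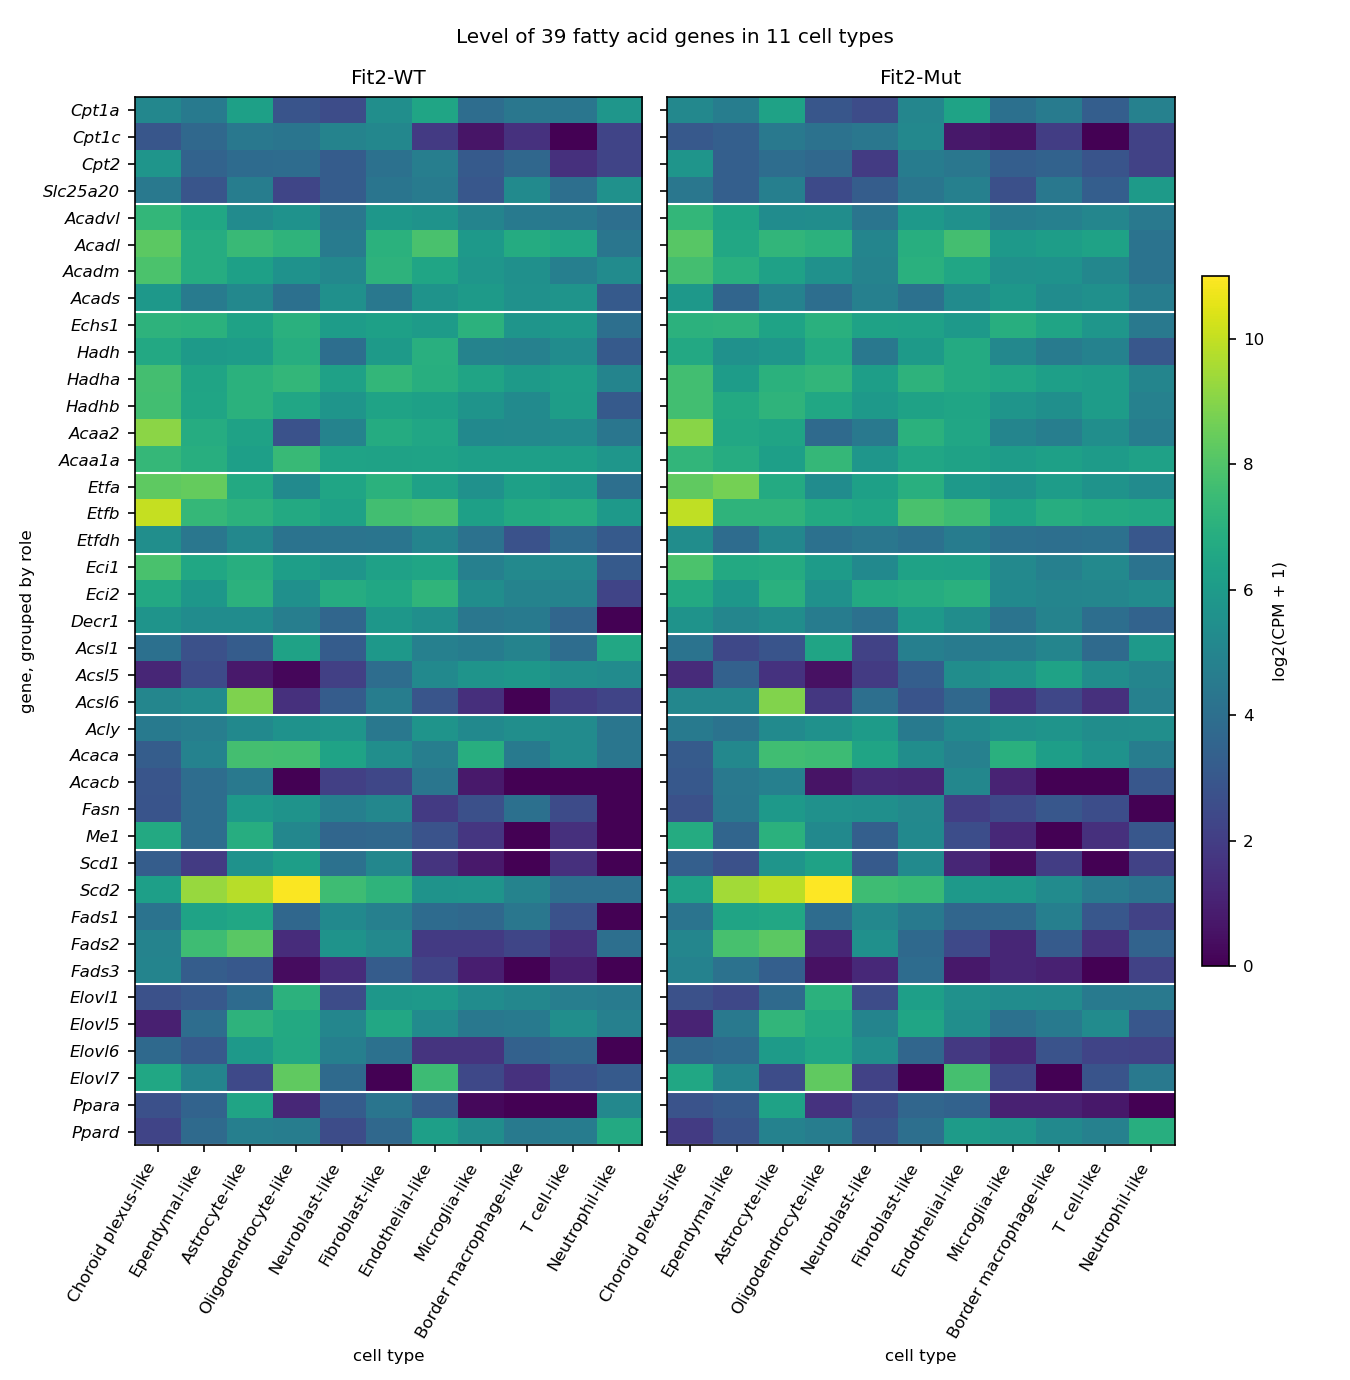
Level of each of the 39 genes as log2(CPM + 1) (colour) in 11 cell types, for Fit2-WT (left) and Fit2-Mut (right), with white lines between roles. Oxidation genes are brightest in the choroid plexus-like column, Scd2 in the oligodendrocyte-like and astrocyte-like columns, and the panels of the 2 libraries look alike.

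In choroid plexus-like cells, 9 of 20 oxidation genes and 2 of 14 synthesis genes were high, where 13.4% of all genes tested were high. None of the oxidation genes (0) was low there. Of the synthesis genes, 8 of 14 were low, and 41.4% of all genes tested were low there. The 9 were Cpt2, the dehydrogenases Acadvl, Acadl and Acadm, Hadhb, the thiolase Acaa2, both flavoprotein subunits Etfa and Etfb, and Eci1. With cells assigned to types by their marker share instead of by cluster, 5 of 39 members were high in choroid plexus-like cells rather than 11. In astrocyte-like cells 12 of 39 members were high (29.2% of all genes), 8 of them synthesis genes, and 13 of 39 (22.3% of all genes) with the reference without choroid plexus-like cells. Low members there numbered 7 of 39 (18.1% of all genes), and 4 with the other reference (17.9%). In oligodendrocyte-like cells 9 of 36 members with enough UMIs were high (18.1% of all genes). They were 8 synthesis genes and the synthetase Acsl1. With the other reference 8 of 36 were high (14.5% of all genes), of which 5 were synthesis genes, Scd1, Scd2, Elovl1, Elovl6 and Elovl7. In the same cells 9 of 20 oxidation genes were low (17.7% of all genes), and 5 of 20 with the reference without choroid plexus-like cells (19.7% of all genes).

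Microglia-like cells had 2 high members of 34, Acsl5 and Ppard (16.8% of all genes), and 23 low ones (21% of all genes). The low members were 14 of 19 oxidation genes, 8 of 11 synthesis genes and Acsl6. Without choroid plexus-like cells in the reference, 15 of 34 members were low (24% of all genes), with 6 of 19 oxidation genes and the same count of 8 of 11 synthesis genes. Acads and Acsl5 were then the high ones (13.9% of all genes). T cell-like cells had 12 of 18 oxidation genes low against all other cells (10.8% of all genes) and 1 of 18 low against the other reference (11.1%). The smaller types had few high members. Endothelial-like cells had Cpt1a, Acsl5, Acacb and Ppard (4 of 32, and 18.2% of all genes), and ependymal-like cells Etfa, Acacb, Fads1 and Fads2 (4 of 35, and 24.7%), which became 7 of 35 with the other reference (23.8%) when Acadvl, Acaa2 and Fads3 were added. Border-associated macrophage-like (17.8%) and T cell-like (16%) cells each had 1, Acsl5. Neutrophil-like cells had Slc25a20 and Ppard among 6 members with enough UMIs (32.7%). Fibroblast-like cells had Cpt1c (1 of 31, and 15.8%), and with the other reference also Acadm and Acaa2 (3 of 31, and 14.1%). Neuroblast-like cells had none (0, and 24.6%). Low members numbered 7 of 32 in endothelial-like (9.47% of all genes), 9 of 35 in ependymal-like (8.11%), 3 of 31 in fibroblast-like (4.79%) and 13 of 28 in neuroblast-like cells (9.46%). Border-associated macrophage-like cells had 11 low members of 26 (7.35%), and 7 of 26 with the other reference (7.43%). In neutrophil-like cells 1 of 6 was low, Etfb (13.2%). With the other reference, low members numbered 5 in endothelial-like (10.9%), 8 in ependymal-like (11.2%), 4 in fibroblast-like (6.67%), 8 in neuroblast-like (10.8%) and 0 in neutrophil-like cells (11.8%).

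The carnitine shuttle is the entry to mitochondrial oxidation. Its outer membrane transferase Cpt1a, the step that malonyl-CoA inhibits, was highest in endothelial-like cells (88.7 and 81.9 CPM) and astrocyte-like cells (75.8 and 78.8 CPM). These types did not differ beyond counting error in either library, with a ratio of 1.17 (0.973 to 1.40) in Fit2-WT and 1.04 (0.854 to 1.26) in Fit2-Mut. Cpt1a stood at 33.6 and 33.9 CPM in choroid plexus-like, 14.3 and 15.7 CPM in microglia-like and 6.16 and 6.61 CPM in oligodendrocyte-like cells. The low level in oligodendrocyte-like cells was below the free RNA of the suspension (45.4 and 35.7 CPM), taken from barcodes with 10 to 100 UMIs. Cpt1c, a form of the enzyme found in the endoplasmic reticulum of neurons, was highest of the 11 types in fibroblast-like cells (32.7 and 33.7 CPM). Neuroblast-like (29.3 and 19.6 CPM) and astrocyte-like cells (20.3 and 20.6 CPM) came next, in this order in Fit2-WT and in the other in Fit2-Mut. The neuron-like cells, too few to be among the 11 types (24 and 38 cells), held 10 and 15 UMIs of Cpt1c, which is 49.6 and 44.2 CPM. T cell-like cells had 0 UMIs of Cpt1c in both libraries, where 3 UMIs would have been 2.87 and 1.87 CPM. The inner membrane transferase Cpt2 followed the matrix enzymes and was highest in choroid plexus-like cells (52.0 and 51.7 CPM), ahead of endothelial-like cells (25.4 and 19.7 CPM). Slc25a20, the carrier that exchanges acylcarnitine for carnitine, was highest in neutrophil-like cells at 45.7 and 62.9 CPM, a value that rests on 70 and 61 cells.

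The acyl-CoA dehydrogenases carry out the opening step of each round, and each acts on a range of chain lengths. The very-long-chain enzyme Acadvl was at 153 and 153 CPM in choroid plexus-like and 91.9 and 84.9 CPM in ependymal-like cells. The long-chain enzyme Acadl was at 299 and 278 CPM in choroid plexus-like and 227 and 210 CPM in endothelial-like cells. Medium-chain Acadm was at 235 and 212 CPM in choroid plexus-like and 139 and 125 CPM in fibroblast-like cells. The short-chain enzyme Acads did not share this order. Its levels in microglia-like (63.1 and 56.3 CPM) and choroid plexus-like cells (56.5 and 57.2 CPM) were close, with T cell-like cells (50.7 and 44.8 CPM) near them and oligodendrocyte-like cells at 15.5 and 14.9 CPM.

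Within the later steps of the spiral, the gene encoding the hydratase Echs1 was at close levels in 4 of the large types. It stood at 137 and 133 CPM in choroid plexus-like, 132 and 118 CPM in microglia-like, 128 and 136 CPM in ependymal-like and 125 and 124 CPM in oligodendrocyte-like cells. The other large types were lower, with 79.4 and 83.5 CPM in astrocyte-like, 63.8 and 61.6 CPM in endothelial-like and 57.4 and 54.1 CPM in T cell-like cells. The short-chain dehydrogenase Hadh was instead highest in endothelial-like (120 and 105 CPM) and oligodendrocyte-like cells (116 and 103 CPM). Acaa2, the medium-chain thiolase that ends each round, ranged widely between the large types. It reached 538 and 523 CPM in choroid plexus-like cells against 112 and 94.6 CPM in ependymal-like, 108 and 128 CPM in fibroblast-like and 5.89 and 13 CPM in oligodendrocyte-like cells. With every cell thinned to 1000 UMIs, 38.8% and 36.3% of choroid plexus-like cells had an Acaa2 UMI, against 8.65% and 10.4% of ependymal-like cells. The peroxisomal thiolase Acaa1a was arranged otherwise, with 171 and 159 CPM in oligodendrocyte-like and 161 and 151 CPM in choroid plexus-like cells.

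Hadha and Hadhb encode the alpha and beta subunits of the mitochondrial trifunctional protein, which joins the last 3 reactions for long chains. Hadha was at 210 and 200 CPM in choroid plexus-like cells, and Hadhb at 201 and 201 CPM there and 130 and 142 CPM in astrocyte-like cells. The lowest Hadhb level among the 7 large types was in microglia-like cells, 51.3 and 52.9 CPM. The genes lie head to head on chromosome 5, with Hadha on the minus strand (chr5:30118304-30155162) and Hadhb on the plus strand (chr5:30155248-30184593) of GRCm38. Only 85 bases separate the GENCODE starts of both genes, while RefSeq places the start of Hadha further inside that gene. Over the 11 types, their levels had a Spearman's rho of 0.84 in Fit2-WT and 0.64 in Fit2-Mut, a description over types that share library and depth. The whole stretch between the GENCODE starts (chr5:30155163-30155247, plus strand, from the RefSeq window of Hadhb, GRCm38.p6) is shown because it lies between both genes. Capitals mark its 2 GC boxes, the letters GGGCGG that Sp1 family factors are known to bind.
Hadhb: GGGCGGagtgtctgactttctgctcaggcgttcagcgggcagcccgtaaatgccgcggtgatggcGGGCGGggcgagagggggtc

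The electron transfer flavoprotein passes electrons from the acyl-CoA dehydrogenases to the respiratory chain. Its beta subunit gene Etfb was at 1053 and 998 CPM in choroid plexus-like, 228 and 192 CPM in endothelial-like and 202 and 231 CPM in fibroblast-like cells. The ratio to the next type was 4.61 (4.19 to 5.09) in Fit2-WT, over endothelial-like cells, and 4.33 (3.74 to 5.03) in Fit2-Mut, over fibroblast-like cells. After thinning, 61.5% and 60.1% of choroid plexus-like cells had an Etfb UMI, against 19.7% and 19.8% of endothelial-like cells. The alpha subunit gene Etfa did not share this order, with 340 and 418 CPM in ependymal-like and 311 and 314 CPM in choroid plexus-like cells. Etfdh, the membrane oxidoreductase that takes over the electrons, was at 42.1 and 41.0 CPM in choroid plexus-like, 16.8 and 16.1 CPM in microglia-like and 13.4 and 16.2 CPM in T cell-like cells. For unsaturated chains, the isomerase Eci1 was highest in choroid plexus-like cells (230 and 232 CPM). The isomerase Eci2 was highest in endothelial-like cells (144 and 126 CPM) with astrocyte-like cells beside them (133 and 124 CPM). The reductase Decr1 was at 55.2 and 58.6 CPM in fibroblast-like cells and called high in no type.

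The acyl-CoA synthetases that activate fatty acids divided the brain's cells between them. Acsl6, an isoform known for its preference for polyunsaturated fatty acids, was at 473 and 485 CPM in astrocyte-like cells. The next types were ependymal-like cells in Fit2-WT (38.5 CPM) and choroid plexus-like cells in Fit2-Mut (33.5 CPM), and the ratios to them were 12.3 (9.04 to 17.2) and 14.5 (13.3 to 15.9). In thinned cells an Acsl6 UMI was found in 33.3% and 35.0% of astrocyte-like and in 0.272% and 0.215% of oligodendrocyte-like cells. Acsl1, which serves both oxidation and triglyceride synthesis in many tissues, was at 79.2 and 85.3 CPM in oligodendrocyte-like cells and 8.26 and 6.32 CPM in astrocyte-like cells. Neutrophil-like cells held 95.2 and 59.4 CPM of it on few cells. Acsl5 marked immune and vascular cells. It was at 56.3 and 80.2 CPM in border-associated macrophage-like, 50.3 and 49.9 CPM in microglia-like, 42.1 and 40.4 CPM in T cell-like and 36.8 and 41.3 CPM in endothelial-like cells. It was at 0.137 and 0.389 CPM in oligodendrocyte-like and 0.661 and 2.03 CPM in astrocyte-like cells, below its free RNA level of 11.5 and 12.2 CPM.

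The promoter stretches of the synthetases are shown because these paralogs were high in different cell types (RefSeq windows, GRCm38.p6, plus strand). Capitals mark matches on either strand. In Acsl1 (chr8:46470872-46470961) they are 3 GC boxes. In Acsl5 (chr19:55253209-55253298), whose window lies within the annotated gene but outside its exons, they mark the letters CCAAT that NF-Y is known to bind. In Acsl6 (chr11:54303644-54303743) they mark TGACCTTGA, which is the reverse complement of the element TCAAGGTCA known for estrogen-related receptors, then CCAAT and then CCGCCC, a GC box on the other strand.
Acsl1: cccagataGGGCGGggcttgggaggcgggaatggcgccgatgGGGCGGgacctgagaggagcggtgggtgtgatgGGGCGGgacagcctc
Acsl5: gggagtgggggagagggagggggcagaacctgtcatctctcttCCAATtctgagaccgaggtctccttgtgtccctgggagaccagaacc
Acsl6: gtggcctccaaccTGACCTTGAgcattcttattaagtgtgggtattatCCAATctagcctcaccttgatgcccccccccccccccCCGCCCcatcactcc

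Windows of 250 bases before an annotated start were found for 34 of the 39 genes and searched on both strands. The GC box GGGCGG occurred in 23 of 34 members (67.6%) and in 35.4% of 27025 genes with such a window. CCAAT occurred in 18 of 34 members (52.9%) and in 37.5% of all genes. Among members, GC boxes were present in 13 of 18 oxidation and 6 of 11 synthesis genes. The sterol-response type TCACNCCAC was found in 1 member, Acsl1 (1.22% of all genes), and TCAAGGTCA in 1, Acsl6 (0.422% of all genes). CACGTG, the E-box, was found in 1, Elovl5 (6.86% of all genes). The direct repeat known for PPAR receptors, AGGTCA repeated after 1 base, shares the letters AGGTCA with the estrogen-related element and was found in no member (0) and in 0.0407% of all genes. These are matches of letters and say nothing of what binds.

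Lipogenesis starts from citrate. Acly, which splits it to acetyl-CoA, was called high in no type and highest in neuroblast-like cells (52.1 and 64.5 CPM). Its lowest levels were 19.0 CPM in Fit2-WT, in neutrophil-like cells, and 17.4 CPM in Fit2-Mut, in ependymal-like cells. Acaca, the cytosolic acetyl-CoA carboxylase that makes malonyl-CoA and commits it to synthesis (chr11:84129672-84401651, plus strand), was high in some types and low in others. It was at 211 and 198 CPM in astrocyte-like and 200 and 187 CPM in oligodendrocyte-like cells. Microglia-like cells came next among the large types with 120 and 124 CPM, and choroid plexus-like cells were at 8.46 and 7.95 CPM. Acacb, the form at the mitochondrial surface whose malonyl-CoA restrains Cpt1, had another pattern, with 20.8 and 26.9 CPM in astrocyte-like, 18.9 and 33.0 CPM in endothelial-like and 14.1 and 20.9 CPM in ependymal-like cells. Microglia-like cells had 4 and 8 UMIs of Acacb. Fatty acid synthase, Fasn, followed Acaca in astrocyte-like (60.8 and 60.2 CPM) and oligodendrocyte-like cells (49.4 and 46.7 CPM), but in microglia-like cells it was at 5.47 and 4.31 CPM. The malic enzyme Me1, a source of NADPH for synthesis, was at 114 and 129 CPM in astrocyte-like and 102 and 109 CPM in choroid plexus-like cells. Me1 and the desaturase relative Fads3 (30.5 and 28.7 CPM) were the synthesis genes that were high in choroid plexus-like cells.

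The desaturases formed pairs. The delta-9 desaturases Scd1 and Scd2, which make monounsaturated chains, were highest in oligodendrocyte-like cells. Scd2 (chr19:44293674-44306864, plus strand) was at 1932 and 2014 CPM there, 893 and 927 CPM in astrocyte-like and 634 and 709 CPM in ependymal-like cells. Its ratio of oligodendrocyte-like over astrocyte-like cells was 2.16 in Fit2-WT and 2.17 in Fit2-Mut. Scd1 was at 70.3 and 79.8 CPM in oligodendrocyte-like and 47.7 and 51.9 CPM in astrocyte-like cells. The delta-5 and delta-6 desaturases Fads1 and Fads2, which make polyunsaturated chains, had instead their highest levels in astrocyte-like and ependymal-like cells. Fads2 was at 292 and 297 CPM and at 189 and 221 CPM in these types, and at 1.64 and 1.26 CPM in oligodendrocyte-like cells. Fads1 was at 93.3 and 94.5 CPM and at 83.5 and 84.2 CPM, and at 11.8 and 13.7 CPM in oligodendrocyte-like cells. On chromosome 19, 2654 bases lie between Fads3 and Fads2, 81141 between Fads2 and Fads1, and 87590 between Scd2 and Scd1.

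The elongases add carbons to chains of different length and saturation. Elovl7, which acts on saturated and unsaturated long chains, was at 320 and 321 CPM in oligodendrocyte-like, 184 and 212 CPM in endothelial-like and 92.1 and 92.7 CPM in choroid plexus-like cells, and at 4.46 and 4.89 CPM in astrocyte-like cells. Elovl1, which makes very long saturated chains, was at 134 and 129 CPM in oligodendrocyte-like cells. Elovl6, which lengthens palmitate, was at 99.3 and 91.4 CPM in oligodendrocyte-like and 59.8 and 64.4 CPM in astrocyte-like cells. For Elovl5, the polyunsaturated elongase, the order of these types was the other way, with 136 and 148 CPM in astrocyte-like and 101 and 103 CPM in oligodendrocyte-like cells. Choroid plexus-like cells were at 0.953 and 1.14 CPM of Elovl5.

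**Figure D3:**
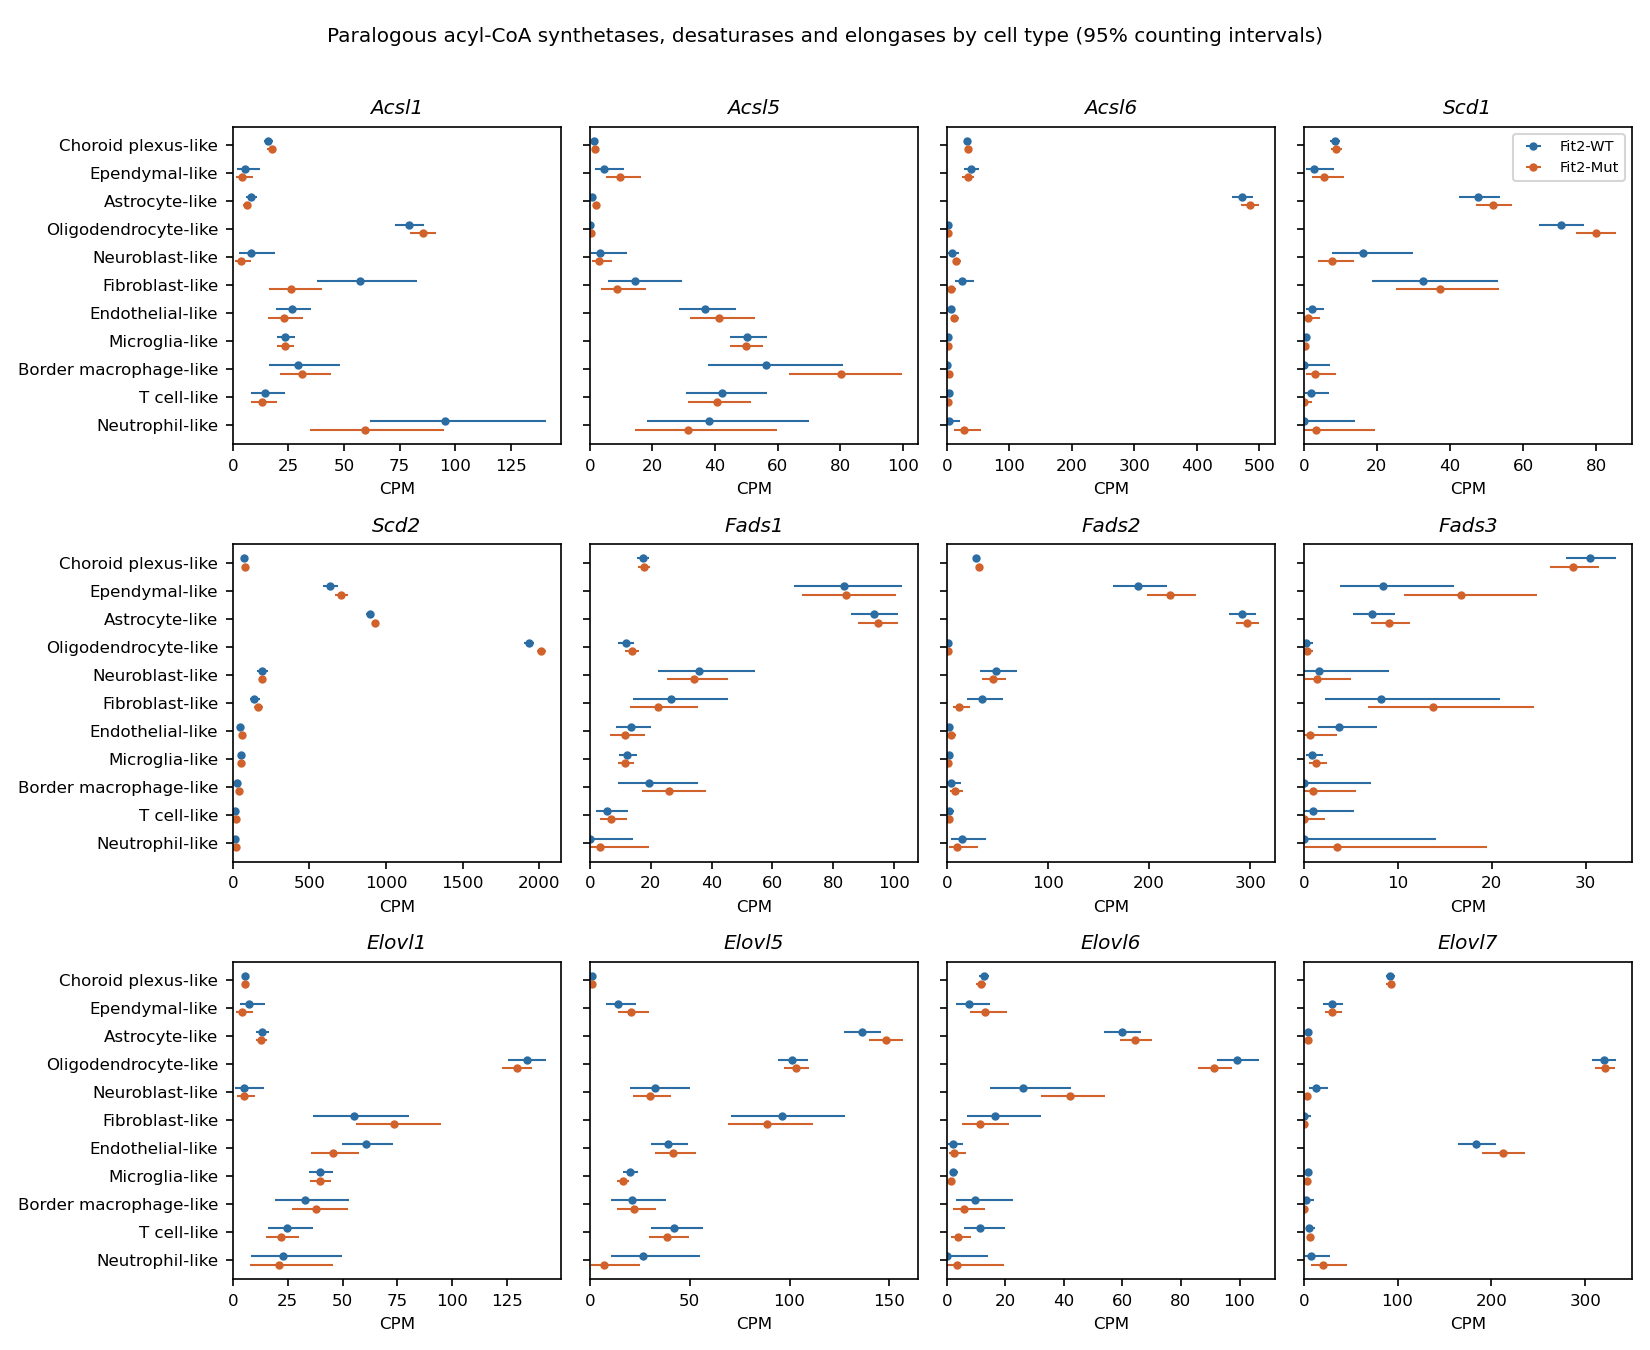
CPM of 12 genes from the families of acyl-CoA synthetases, desaturases and elongases (horizontal, linear scale, different in each panel) in 11 cell types, points for each library with 95% counting intervals. Acsl6 stands out in astrocyte-like cells (473 and 485 CPM), Acsl5 in microglia-like and other immune cells, and Elovl7 in oligodendrocyte-like and endothelial-like cells.

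The receptors that sense fatty acids differed in the same way. Ppara, known as an activator of oxidation genes, was at 85.5 and 80.7 CPM in astrocyte-like cells, the only large type where it was high, and had 1 and 7 UMIs in microglia-like cells. Ppard was at 103 and 119 CPM in neutrophil-like, 72.5 and 64.1 CPM in endothelial-like and 40.9 and 54.5 CPM in microglia-like cells. The neutrophil-like value rests on 70 and 61 cells.

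Other genes of the pathway, from lists chosen by role, were examined in the 7 large types. Among 12 peroxisomal oxidation genes, 4 were high in astrocyte-like cells, where 29.2% of all genes were. In microglia-like cells the acyl-CoA oxidase Acox3 (55.2 and 54.2 CPM) and the peroxisomal importer Abcd2 (185 and 151 CPM) were high. Of 18 regulators, 8 were high in astrocyte-like cells, among them the coactivator Ppargc1a (205 and 194 CPM) and the lipogenic factor Srebf1 (147 and 139 CPM). In microglia-like cells 1 of 14 was high, Mlxipl, a carbohydrate-responsive activator of lipogenesis (39.7 and 40.8 CPM, 14.2-fold and 10.9-fold above the other cells). Lipoprotein lipase, Lpl, which frees fatty acids from lipoproteins, was at 658 and 671 CPM in microglia-like cells. In astrocyte-like cells 3 of 7 other synthetases and uptake genes were high, of which Acsl3 was at 1520 and 1637 CPM and the very-long-chain synthetase Acsbg1 at 469 and 474 CPM.

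The comparison of genotypes addresses whether the genes differed when Fit2 was disrupted in macrophages, and microglia-like cells are the resident macrophages with the most cells here (546 and 563). As groups, oxidation and synthesis genes lay close to the level of equality there. The median log2 ratio of Fit2-Mut over Fit2-WT was -0.06 for 19 oxidation genes and -0.08 for 11 synthesis genes, and 0.06 over all 11778 genes with at least 20 UMIs. Of the oxidation genes, 0 of 19 differed by at least 1.5-fold, and of all 34 members 2 did, where 9.53% of all genes differed by that much. These 2, Me1 (0.627, 0.246 to 1.55) and Fads2 (0.489, 0.189 to 1.19), had 23 and 24 UMIs over both libraries and intervals that included 1.

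For 5 of 34 members the counting interval excluded 1, as for 15.4% of all genes. The receptor Ppard had 232 and 379 UMIs, 40.9 and 54.5 CPM, and a ratio of 1.33 (1.13 to 1.57). The isomerase Eci1 had 152 and 248 UMIs, 26.8 and 35.6 CPM, and a ratio of 1.33 (1.08 to 1.64). Acly had 205 and 320 UMIs, 36.1 and 46.0 CPM, and a ratio of 1.27 (1.06 to 1.52). These 3 were higher in Fit2-Mut. Lower there were Acadvl, with 173 and 169 UMIs, 30.5 and 24.3 CPM and a ratio of 0.796 (0.640 to 0.990), and Echs1, with 751 and 822 UMIs, 132 and 118 CPM and a ratio of 0.892 (0.807 to 0.986). The share of members with such an interval was near that of all genes.

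The members that reached 50 UMIs in microglia-like cells and whose intervals included 1 lay between 0.789 and 1.15. In the carnitine shuttle the ratio was 1.10 (0.815 to 1.48) for Cpt1a, 1.11 (0.741 to 1.68) for Cpt2 and 0.794 (0.494 to 1.27) for Slc25a20. Among the other dehydrogenases it was 0.991 (0.858 to 1.15) for Acadl, 0.857 (0.731 to 1.005) for Acadm and 0.892 (0.771 to 1.03) for Acads. The inner steps of the spiral were on both sides of 1. Hadh had 1.15 (0.937 to 1.41), Hadha 1.05 (0.930 to 1.18) and Hadhb 1.03 (0.881 to 1.21), whereas Acaa2 had 0.839 (0.690 to 1.02) and Acaa1a 0.926 (0.809 to 1.06). Electron transfer was close to 1, with 1.03 (0.871 to 1.21) for Etfa, 1.08 (0.951 to 1.23) for Etfb and 0.961 (0.725 to 1.28) for Etfdh. The other enzymes for unsaturated chains, Eci2 and Decr1, had 0.900 (0.750 to 1.08) and 0.919 (0.705 to 1.20).

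The activating enzymes Acsl1 and Acsl5 were nearly equal between the libraries at 0.999 (0.790 to 1.27) and 0.992 (0.846 to 1.16). The carboxylase Acaca, with 678 and 862 UMIs, had 1.04 (0.936 to 1.15), and Fasn, with 31 and 30 UMIs, 0.789 (0.461 to 1.35). Scd2 had 1.09 (0.932 to 1.27) and Fads1 0.943 (0.676 to 1.32). The elongases Elovl1, Elovl5 and Elovl7 had 0.995 (0.832 to 1.19), 0.815 (0.623 to 1.07) and 0.951 (0.531 to 1.71). Cpt1c, Acacb, Scd1, Fads3 and Ppara had under 20 UMIs in microglia-like cells, so that no difference was detectable at this depth. Markers of other cells also differed between these libraries. The choroid plexus list (8 of 8 markers with a UMI) summed to 4237 CPM in Fit2-WT and 3169 CPM in Fit2-Mut microglia-like cells, and the monocyte list (7 and 8 of 8) to 20.1 and 54.0 CPM. Of the T cell list, 7 of 8 markers, Cd3e, Cd3d, Cd3g, Trac, Trbc2, Cd8a and Lat, were at 0 in Fit2-WT and only Cd8a in Fit2-Mut, with sums of 3.70 and 7.04 CPM. The part of these RNAs in the ratios was not tested.

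**Figure D4:**
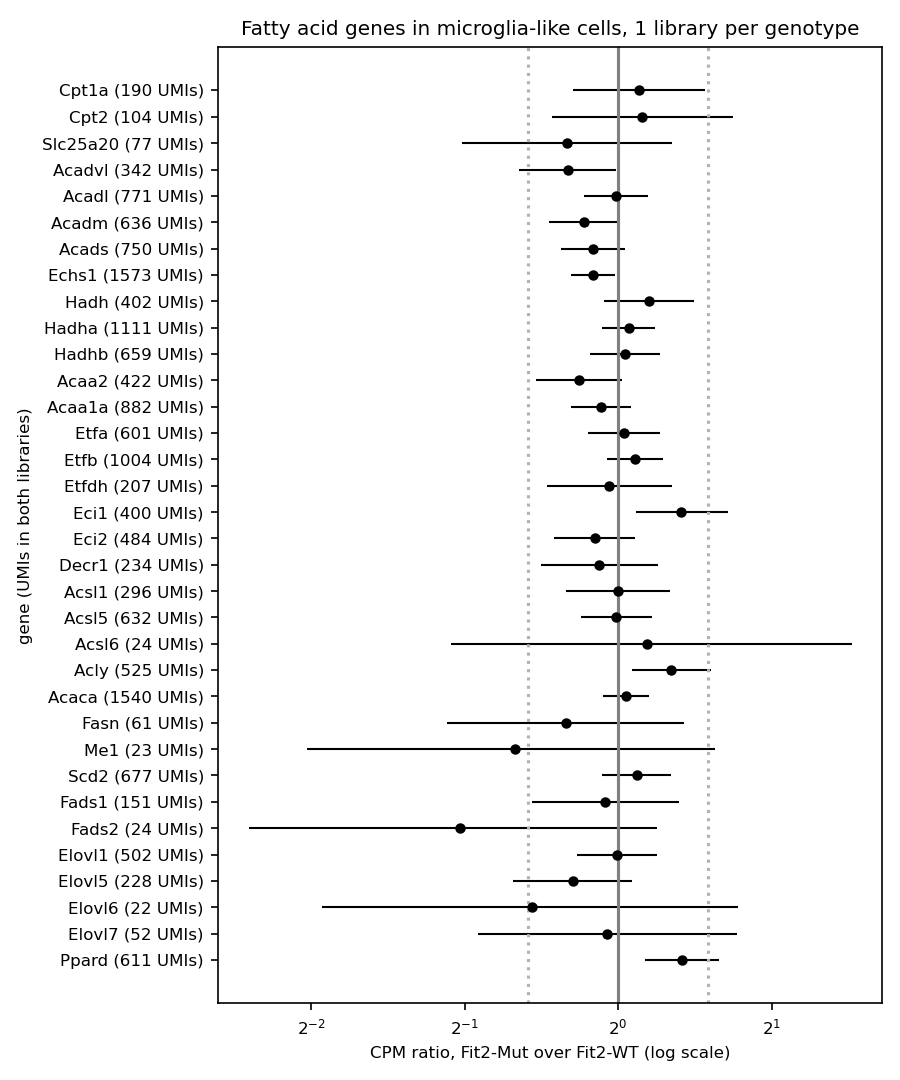
Ratio of CPM in Fit2-Mut over Fit2-WT (horizontal, log scale) in microglia-like cells for the 34 members with at least 20 UMIs, with 95% counting intervals and dotted lines at 1.5-fold either way. Most intervals cross 1, and Ppard (1.33), Eci1 (1.33) and Acly (1.27) lie to the right of it with Acadvl (0.796) and Echs1 (0.892) to the left.

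Outside microglia-like cells, ratios were close to 1 in the types with most UMIs. In choroid plexus-like cells 0 of 39 members differed by at least 1.5-fold (6.08% of all genes), and the median log2 ratio was -0.04 for oxidation and 0.02 for synthesis genes. Counting intervals there excluded 1 for 5 of 39 members (13.6% of all genes), each of them an oxidation gene that was lower in Fit2-Mut by a small amount. The ratios were 0.931 (0.894 to 0.969) for Acadl, 0.903 (0.862 to 0.945) for Acadm, 0.952 (0.907 to 0.998) for Hadha, 0.940 (0.890 to 0.993) for Acaa1a and 0.947 (0.927 to 0.968) for Etfb. In astrocyte-like cells 1 of 39 members passed 1.5-fold (7.36% of all genes). It was Acsl5, with 4 and 17 UMIs. Intervals excluded 1 for 6 of 39 members there (13.2% of all genes). Acadl (0.853, 0.786 to 0.926) and Hadh (0.818, 0.713 to 0.939) were lower in Fit2-Mut, and Acacb (1.29, 1.04 to 1.62) and Me1 (1.13, 1.03 to 1.25) were higher. The clusters that make up this type had different shares in the libraries, with 263 of 1200 and 443 of 1458 cells in cluster 5 and 284 and 230 in cluster 9. Within clusters, Acacb was at 34.6 and 47.0 CPM in cluster 3 and 21.9 and 24.0 CPM in cluster 5. It was at 8.58 and 12.5 CPM in cluster 8, 22.6 and 27.2 CPM in cluster 9 and 24.0 and 45.7 CPM in cluster 15. Me1 was at 162 and 168 CPM in cluster 5, 128 and 157 CPM in cluster 3 and 74.7 and 92.6 CPM in cluster 9, but at 90.4 and 88.99 CPM in cluster 8 and 101 and 93.3 CPM in cluster 15. Both genes were picked from the same cells and the clusters share the libraries, so that the values within clusters are descriptions. The part of the cluster shares in these ratios was not tested.

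In oligodendrocyte-like cells 1 of 36 members passed 1.5-fold (8.34% of all genes), Acaa2. Its level was 5.89 and 13 CPM, from 43 and 134 UMIs, and the ratio was 2.21 (1.56 to 3.20). Its level in both libraries was far below the free RNA level of 133 and 121 CPM. The UMIs came from 37 and 76 cells, and 5 cells held 25.6% and 33.6% of them. Markers of choroid plexus-like cells, where Acaa2 is highest, also differed. The 8 choroid plexus markers, all present in both libraries, summed to 839 CPM in Fit2-WT and 2793 CPM in Fit2-Mut oligodendrocyte-like cells. Without the 5 and 13 cells in which more than 1% of UMIs were choroid plexus markers, an alternative added after seeing the data, the Acaa2 ratio was 1.27. The part of choroid plexus RNA in the remaining difference was not tested. Intervals excluded 1 for 6 of 36 members (13.2% of all genes), 3 higher and 3 lower in Fit2-Mut. The higher ones were Acaa2, Scd1 at 1.14 (1.02 to 1.27) and Scd2 at 1.04 (1.02 to 1.07). The lower ones were the oxidation genes Acadvl, Hadh and Acaa1a.

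Endothelial-like cells had 2 of 32 members past 1.5-fold (11.8% of all genes), Acsl6 with 12 and 19 UMIs and Acacb. Acacb had 35 and 52 UMIs, 18.9 and 33.0 CPM and a ratio of 1.74 (1.11 to 2.76). Intervals excluded 1 for 2 of 32 members there (10.4% of all genes), Acacb higher and Etfb lower in Fit2-Mut. The astrocyte markers (8 of 8 present) summed to 147 and 301 CPM in the same cells, and Acacb is also high in astrocyte-like cells. The erythrocyte markers summed to 105 CPM in Fit2-WT (4 of 6 present) and to 28506 CPM in Fit2-Mut (6 of 6), and the pericyte markers (7 of 7) to 255 and 124 CPM. The part of these RNAs in the ratios was not tested. In ependymal-like cells 4 of 35 members passed 1.5-fold (14.8% of all genes), each on 23 to 40 UMIs. They were Fads3 and Elovl6, which were higher, and Acads and Ppard, which were lower. Intervals excluded 1 for 3 of 35 members there (10.9% of all genes), Etfa and Scd2 higher and Acads lower. The choroid plexus list summed to 6338 CPM in Fit2-WT (7 of 8 markers, with Slc4a5 at 0) and 3001 CPM in Fit2-Mut ependymal-like cells (8 of 8), a ratio of 0.474 (0.456 to 0.492), and its part in these ratios was not tested. In T cell-like cells 4 of 26 members passed 1.5-fold (24.6% of all genes), Acadvl and Scd2 higher and Cpt1a and Slc25a20 lower. Cpt1a had 20 and 14 UMIs there and a ratio of 0.456 (0.213 to 0.948). Among the 26 members only the Cpt1a interval excluded 1 (19.7% of all genes). The T cell-like cells of Fit2-Mut held more microglial RNA, with the microglial list at 1647 and 4241 CPM. Their erythrocyte list stood at 22.0 and 13560 CPM (5 of 6 markers in both) and their pericyte list at 76.5 and 13.7 CPM (6 and 4 of 7, with Higd1b at 0 in Fit2-WT and Rgs5, Abcc9 and Vtn in Fit2-Mut). Cluster 26, with a median of 16161 UMIs per cell, made up 12 of 197 and 43 of 230 of them. The part of these in the ratios was not tested.

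Within microglia-like cells, Acaca separated the clusters more than the genotypes. Cluster 7, led by Spp1, Itgax, Lpl and Gpnmb, genes known from microglia near amyloid plaques, held 303 and 343 cells. Cluster 14, led by the homeostatic genes Tmem119 and P2ry12, held 103 and 101. Acaca was at 154 and 153 CPM in cluster 7 and 34.3 and 26.5 CPM in cluster 14, a ratio of 4.51 (3.03 to 7.02) in Fit2-WT and 5.78 (3.82 to 9.16) in Fit2-Mut. Both libraries showed it, with overlapping intervals. Cluster 14 was shallower than cluster 7, with a median of 6461 and 7123 against 13148 and 14822 UMIs. Its Malat1 RNA, which is nuclear, was at 23331 and 21250 against 10651 and 10971 CPM. Ribosomal protein genes made up a median of 8.37% and 8.06% of the UMIs of its cells, against 16.1% and 15.5%. The part of depth and RNA quality in this ratio was not tested. In cells thinned to 1000 UMIs an Acaca UMI was found in 11.6% and 15.5% of cluster 7 and 2.91% and 2.97% of cluster 14. A further cluster, 11, held 140 and 119 shallower cells with 9.23 and 7.67 CPM of Acaca. Its median depth was 3934 and 3976 UMIs, and its Malat1 RNA was at 577 and 773 CPM. Ribosomal protein genes made up a median of 28.4% and 26.6% of the UMIs of its cells. The part of RNA quality in its levels was not tested. Since the clusters come from expression, these are descriptions.

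Between clusters 7 and 14, 4 of the 34 members with at least 20 UMIs in microglia-like cells differed beyond counting error in both libraries, where 20.2% of all genes did. Beside Acaca, Scd2 was higher in cluster 7, with 55.0 and 59.9 against 24.7 and 17.3 CPM (2.23, 1.38 to 3.83, and 3.46, 2.07 to 6.26). In thinned cells the Fit2-WT share of cells with an Scd2 UMI went the other way (2.31% in cluster 7 and 3.88% in cluster 14), so that no order is read for it. Echs1 was at 139 and 123 against 86.3 and 69.2 CPM. Acads was lower in cluster 7, at 58.8 and 53.1 against 95.9 and 87.7 CPM (0.613, 0.469 to 0.812, and 0.606, 0.469 to 0.791). Summed over the 20 oxidation genes, the clusters were alike, with 869 and 846 CPM in cluster 7 and 854 and 858 CPM in cluster 14. Between genotypes, Ppard was at 45.4 and 61.0 CPM in cluster 7 and at 48.0 and 51.9 CPM in cluster 14. Eci1 was at 23.4 and 33.5 CPM in cluster 7 and 30.1 and 46.2 CPM in cluster 14, and Acly at 37.8 and 47.4 CPM and at 39.7 and 53.1 CPM. In both clusters the Fit2-Mut values were above those of Fit2-WT. The genes had been picked for being higher in Fit2-Mut over the same cells, so that this is a description and no further observation. In cluster 11 Ppard was at 9.23 and 3.07 CPM (7 and 2 UMIs), Eci1 at 42.2 and 39.9 CPM and Acly at 23.7 and 24.5 CPM. A difference between the clusters in this was not tested.

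**Figure D5:**
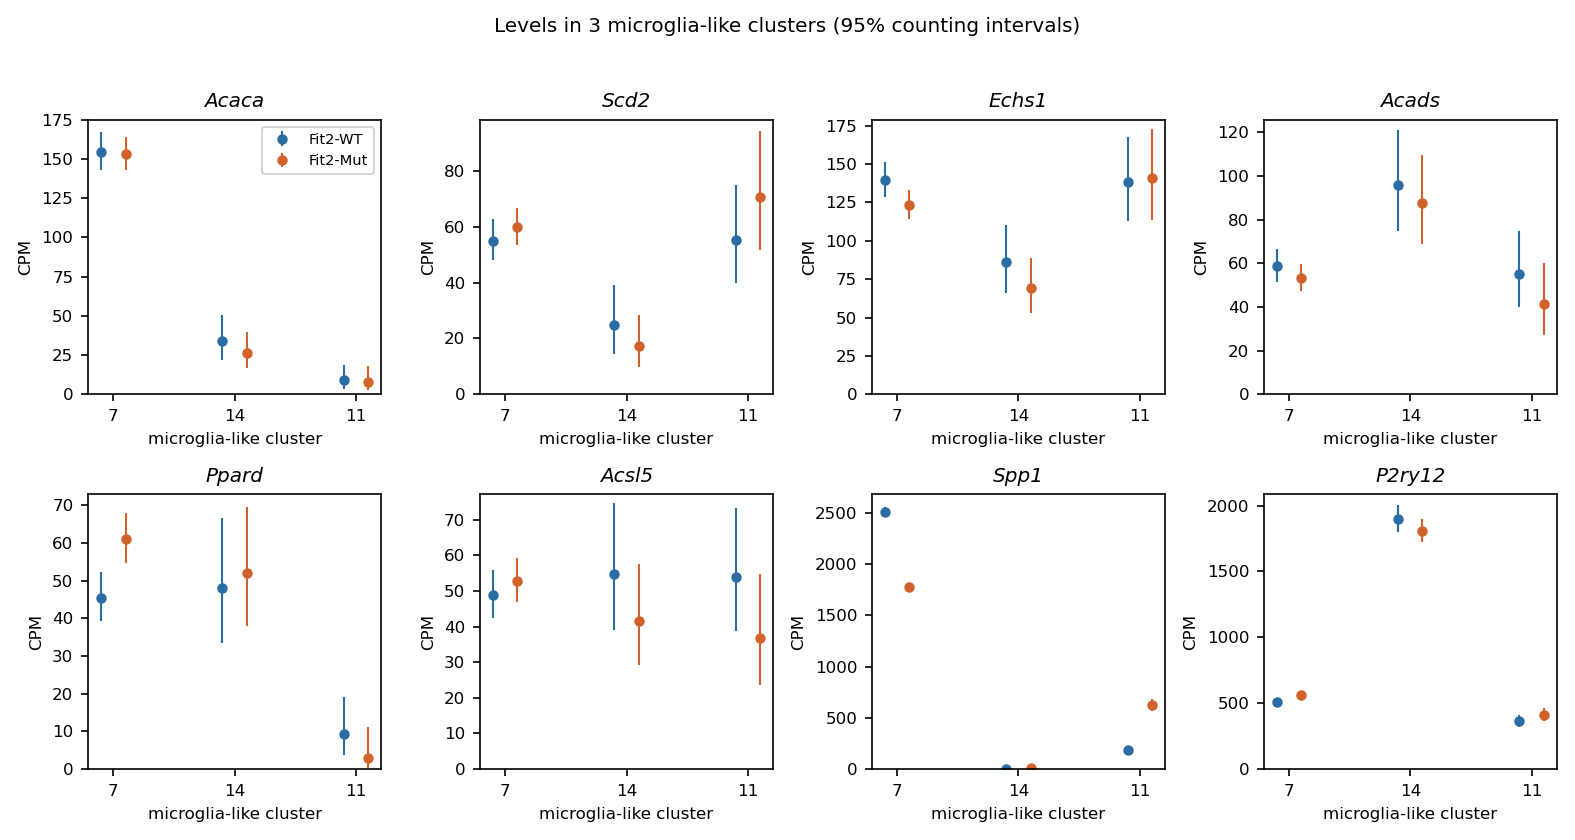
CPM of 6 members and 2 leading genes in the 3 microglia-like clusters (7, 14 and 11), points for each library with 95% counting intervals and a linear axis from 0 in each panel. Acaca is near 154 CPM in cluster 7 of both libraries and under 35 CPM in the others, while Spp1 marks cluster 7 and P2ry12 cluster 14.

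Oligodendrocyte-like cells also held clusters with different synthesis genes. Cluster 2, led by Opalin and Il33, had 441 and 559 cells, and cluster 6, led by Klk6 and Anln, 294 and 370. Fads1 was at 21.8 and 24.2 CPM in cluster 2 and 2.84 and 4.25 CPM in cluster 6, a ratio of 7.68 (4.05 to 16.0) and 5.71 (3.63 to 9.36). Me1 went the other way, with 16.6 and 15.8 CPM in cluster 2 and 48.4 and 54.6 CPM in cluster 6. The elongases split likewise. Elovl6 was higher in cluster 2 (120 and 112 against 80.9 and 72.9 CPM), whereas Elovl7 (252 and 244 against 380 and 389 CPM), Elovl1 (107 and 97.2 against 157 and 158 CPM) and Elovl5 (72.5 and 78.3 against 127 and 126 CPM) were higher in cluster 6. Acaca, at 153 and 144 CPM in cluster 2, was at 241 and 226 CPM in cluster 6. Cluster 2 was shallower than cluster 6, with a median of 7621 and 8391 against 12275.5 and 13469.5 UMIs. The part of depth in these levels was not tested. These clusters, too, come from expression, so the values are descriptions. The share of all genes that differed between them was not counted.

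Among astrocyte-like cells, cluster 5, led by Agt, had 263 and 443 cells, and cluster 8, led by Lhx2, had 245 and 282. Scd1 was at 110 and 98.6 CPM in cluster 5, which was 3.57-fold and 2.73-fold above cluster 8. Acsl6 was at 668 and 650 CPM in cluster 5. The oxidation genes were instead highest in cluster 8, where they summed to 2341 and 2153 CPM, with the thiolase Acaa2 at 148 and 140 CPM. In cluster 3 of this type, ribosomal protein genes made up a median of 0.262% and 0.256% of the UMIs of a cell. The medians were 0.292% and 0.245% in cluster 9 and 2.02% and 1.84% in cluster 8. Clusters 3 and 9 had oxidation sums of 772 and 728 CPM and of 915 and 811 CPM, in this order. The part of RNA quality in these levels was not tested.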

How the data were processed

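The deposited matrices hold UMI counts, whole numbers with no normalization, for 32285 genes and every barcode, per the file headers. The submitters' processing notes name mm10 and Cell Ranger 7.0.0, while the headers name Cell Ranger 7.1.0. Depth was 52491901 (Fit2-WT) and 63234140 (Fit2-Mut) UMIs over all barcodes. Cells had at least 1000 UMIs, 500 genes and at most 10% mitochondrial UMIs. Scrublet in Scanpy 1.11.5 (Python 3.11.15) removed 136 and 158 doublets. Clusters (2000 variable genes, 30 components, 15 neighbours, Leiden resolution 1, leidenalg 0.10.2) were named from marker lists, with at least 3 markers 2-fold up, and 69 and 89 cells stayed unnamed. UMIs were summed per type and library. Intervals are exact Poisson, exact conditional for ratios and Clopper-Pearson for shares. Every member is accounted for, and genotype ratios are given in full for members with at least 50 UMIs in microglia-like cells, or 1.5-fold apart elsewhere with an interval that excludes 1. The members and lists were chosen with earlier results of these data known. The ratio script was checked on simulated data. Alternatives were other filters, scalings, cluster resolutions and references. Locations are from GENCODE vM21 and sequences from RefSeq.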

Additional observations from a re-analysis of the deposited data

Results flagged for a closer look

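Signals above the highest of the 11 described cell types appeared in cells outside them, which no comparison used. In vascular smooth muscle-like cells (47 in each library), Fads3, a relative of the fatty acid desaturases, was at 72.0 CPM in Fit2-WT and 59.98 CPM in Fit2-Mut, on 17 and 13 UMIs, where the highest of the 11 types had 30.5 and 28.7 CPM. Cluster 24 received no name and was led by Npy, Frzb and Foxd3, with 28 and 44 cells. Its level of the isomerase gene Eci2 was 272 CPM in Fit2-WT and 208 CPM in Fit2-Mut, on 44 and 79 UMIs, where the highest type had 144 and 126 CPM. Its level of the desaturase gene Scd1 was 247 CPM and 311 CPM, on 40 and 118 UMIs, where the highest type had 70.3 and 79.8 CPM.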

How the results depend on the processing

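No paired analysis was possible because each genotype had 1 library. Of the summary values for the members in each type, 242 recomputed values were the same and 12 moved. A median was the same when it stayed within the median bounds of the members' counting intervals, and a count when within 1.5 times. Turns of direction were looked for only in the ratios of Acaa2 in oligodendrocyte-like and Acacb in endothelial-like cells, and neither turned. Several median log2 ratios changed sign, such as those of oxidation genes in microglia-like (-0.11 to 0.07) and ependymal-like cells (-0.14 to 0.30). For the single genes and types, 692 were the same and 79 moved. A single ratio was the same when it stayed within its own counting interval. The limits of at least 100 UMIs and of at least 1 UMI in each library cannot change a single ratio. Their values for single ratios were thus the same by design, and the 692 include them. In microglia-like cells, the count of oxidation genes at least 1.5-fold apart was 0, against 1 with cells weighted equally and 5 of 16 after thinning to 1000 UMIs. The count of synthesis genes was 2 of 11, against 0 with types by marker share, 1 with equal weights, 1 of 4 after thinning, 0 of 6 with at least 100 UMIs, 4 of 14 with at least 1 UMI in each library, 1 of 9 without the 10 cells richest in members and 0 of 8 without choroid plexus-rich cells. Thinning also gave median log2 ratios of 0.51 over 4 synthesis genes in microglia-like cells, and of 0.68 over 7 oxidation and 0.73 over 2 synthesis genes in T cell-like cells. Fewer genes were left in these fits, and the cause was otherwise not tested. With TMM scaling the median of all genes in microglia-like cells shifted by 0.06. Ratios in microglia-like cells ranged over alternatives from 1.28 to 2.52 for Eci1, 1.22 to 2.31 for Acly, 1.21 to 1.45 for Ppard, 0.539 to 0.878 for Acadvl and 0.858 to 0.952 for Echs1. Acacb in endothelial-like cells ranged from 1.59 to 2.33, and Acaa2 in oligodendrocyte-like cells from 1.27 to 2.72. With types by marker share, high members numbered 5 rather than 11 in choroid plexus-like, 7 rather than 4 in ependymal-like and 4 rather than 2 in neutrophil-like cells, and thinning left 1 in ependymal-like cells. Of 47 calls of a member as high in a type, 36 were recalled with types by marker share (45 calls), 34 after thinning (36 calls) and 40 with the reference without choroid plexus-like cells (52 calls). Without replicate libraries, differences between animals cannot be told apart from those between genotypes.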

Other observations

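Further genes of fatty acid metabolism, from lists by role, were high in 1 or 2 cell types. Fa2h, which hydroxylates the fatty acids of myelin lipids, was at 407 and 424 CPM in oligodendrocyte-like cells, 292-fold and 298-fold above the other cells, and the fatty acid carrier Fabp5 was at 961 and 905 CPM there. Acat1, a mitochondrial thiolase of ketone metabolism, was at 214 and 185 CPM in choroid plexus-like cells. In astrocyte-like cells the polyunsaturated elongase Elovl2 was at 55.7 and 69.9 CPM and the peroxisomal carnitine transferase Crot at 136 and 132 CPM. The lipogenic factor Srebf1 was at 169 and 155 CPM in ependymal-like cells.

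Between genotypes, the ratios below were picked from the lists over the 7 large types. The lists held 12 peroxisomal, 5 ketone body, 9 synthetase and uptake, 14 elongation and synthesis, and 18 regulator genes. Of all genes, 9.53% in microglia-like, 24.6% in T cell-like and 14.8% in ependymal-like cells differed by at least 1.5-fold. The share was 11.8% in endothelial-like, 7.36% in astrocyte-like and 6.08% in choroid plexus-like cells. The scavenger receptor and fatty acid translocase Cd36 had 10 and 47 UMIs in microglia-like cells (Fit2-WT, Fit2-Mut). Its level was 1.76 and 6.75 CPM, a ratio of 3.83 (1.91 to 8.50). The monocyte marker list moved with it (20.1 and 54.0 CPM), and its part was not tested. Oxsm, the mitochondrial ketoacyl synthase, was at 8.29 and 4.31 CPM in microglia-like cells, a ratio of 0.520 (0.318 to 0.840), and at 1.37 and 2.77 CPM in choroid plexus-like cells, a ratio of 2.02 (1.20 to 3.50). Abcd2 was at 185 and 151 CPM in microglia-like cells, a ratio of 0.813 (0.745 to 0.886), and Lpl at 658 and 671 CPM. In T cell-like cells Lpl was at 81.3 and 247 CPM (3.04, 2.40 to 3.89), and Acox3, Abcd2, Abcd3 and Hacd2 had ratios of 1.996, 1.78, 2.15 and 1.82, where the microglial list was at 1647 and 4241 CPM and the erythrocyte list at 22.0 and 13560 CPM, and their part was not tested. Angptl4, an inhibitor of lipoprotein lipase, was at 37.9 and 24.8 CPM in endothelial-like cells (0.654, 0.430 to 0.981), where the erythrocyte list was at 105 and 28506 CPM and the pericyte list at 255 and 124 CPM. Insig2, a brake on sterol-regulated lipogenesis, was at 62.8 and 36.2 CPM in ependymal-like cells (0.576, 0.393 to 0.839). The coactivator Ppargc1b was at 4.46 and 7.51 CPM in astrocyte-like cells (1.68, 1.06 to 2.75). The fatty acid binding protein gene Fabp7 had ratios of 1.94 in choroid plexus-like and 1.66 in ependymal-like cells. The choroid plexus list was at 6338 and 3001 CPM in ependymal-like cells, and the erythrocyte list at 2794 and 4637 CPM in choroid plexus-like cells. The part of these RNAs was not tested.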
